A study of Mus musculus with 4 samples.

Results

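Hearts of mice carrying a transgene with a 25-bp variant of MYBPC3 were compared with hearts of nontransgenic mice, using 2 of the 4 libraries of the series. The samples of each side are given by their labels. The library NTG came from nontransgenic mice and the library dC10mut from the transgenic mice, which the design text names cMyBP-CΔC10mut. Both carry the strain label C57BL/6, and each was made from 3 hearts combined into a single pool at 12 weeks of age. The other libraries, control and tt (a second cardiac myosin binding protein C model, cMyBP-C(t/t), and its control), are labelled FvB/N and were also pools of 3 hearts at 12 weeks. Their counts stand beside those of the pair only as a scale, since strain label and genotype both differ. The promoter that drives the transgene, the number of founder lines and the sex of the animals are not given in the sources used here.

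Cardiac myosin binding protein C, the product of Mybpc3, is a thick-filament protein of heart muscle that binds myosin and actin and tunes how fast cross-bridges form. Variants of the human gene are a frequent cause of inherited hypertrophic cardiomyopathy. Stressed rodent ventricles are known for a shift from alpha to beta myosin heavy chain, for fetal genes such as Nppa, and for changes in mitochondrial fuel use, so those groups were read together with the sarcomere.

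Messenger RNA was captured by its poly(A) tail and sequenced with a kit that keeps the strand. Total counts were 170543 in NTG and 187365 in dC10mut, with 6718 and 6808 genes holding a count. These are shallow libraries, in which a single count equals 5.86 and 5.34 CPM (counts scaled to one common total), and a gene at 0 in NTG could still be present at up to 17.6 CPM (3 counts). Ratios below are scaled counts of dC10mut over NTG with exact 95% intervals, which cover counting error only. With 1 library per group, no difference has a replicate check and no p-value is given. A gene is called higher or lower where it held 10 or more counts in either library, differed at least 2-fold and had an interval that excludes 1.

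The strand setting used in counting is not given in the sources used here, and the rows show why it matters. Some genes overlap, exon on exon, a gene read from the opposite strand, and these held 72.7% of the counts in NTG and 69.9% in dC10mut, and 31 of the 40 most-counted genes had such a partner. Below, they are the genes with an opposite-strand exon. Map3k15, a stress-activated kinase gene that faces the pyruvate dehydrogenase subunit gene Pdha1, held 11983 counts in NTG and 11101 in dC10mut, while the row of Pdha1 held 121 and 188. Genes with more than 1 transcript held only 15.3% and 14.1% of the counts. Facing genes are therefore described apart, with the partner named, and reads of such partners cannot be told apart. Whether the counted strand was that of the gene was not tested, and that limit holds for rows without a partner too, as does the unknown treatment of reads shared by several transcripts.

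The libraries were checked against markers of ventricular muscle. The 9 markers with 1 transcript row, among them Myl2, Actc1, Tnni3, Tnnc1 and Ryr2, held between 93 and 3520 counts in each of the 4 libraries. The 7 markers with several transcript rows, Myh6, Myh7, Myl3, Tnnt2, Ttn, Pln and Mb, held between 0 and 27. Myh6, the main myosin heavy chain of the adult mouse ventricle, held 0 counts in NTG and 0 in dC10mut. Rows of genes with several transcripts therefore say little here, and an absent gene of that kind cannot be read as absent RNA.

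Mybpc3 lies on chromosome 2, 91118144 to 91136516 (GRCm38), and has no opposite-strand exon. The row of Mybpc3 read 344 in NTG and 368 in dC10mut, beside 266 in control and 412 in tt. The ratio of dC10mut over NTG was 0.974 (0.838 to 1.13). The values are counts of the mouse transcript row and not of alleles, so they do not check the transgene.

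Genes of the X inactivation centre separated the pair. The row of Tsix, the antisense partner of Xist, went from 0 to 147 counts, which is at least 44.6-fold (taking 3 counts as the floor). The row of Xist, the RNA that coats the inactive X, had 0 and 8. These genes face each other and the counted strand is not known, so the reads cannot be assigned to Tsix or to Xist. Summed, both rows held 0 counts in control and 173 in tt, while the Y-linked helicase gene Ddx3y held 1 and 0 counts in the pair and 14 and 0 in control and tt. A difference in the sex of the pooled mice and the transgene cannot be told apart in this pair. X-linked genes without an opposite-strand exon had a median log2 ratio of 0.22 over 32 genes, beside 0.29 over the 953 such genes elsewhere.

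Of 24906 genes, 2111 held 10 or more counts in either library and were used. Of these, 142 were called higher in dC10mut (6.73%) and 130 lower (6.16%), 272 in all (12.9%). The 985 genes without an opposite-strand exon gave 100 higher (10.2%) and 41 lower (4.16%), 14.3% in all, with a median log2 ratio of 0.28. The 1107 genes with one gave 40 higher (3.61%) and 87 lower (7.86%), 11.5% in all, with a median of -0.08. A ratio above 1 was found for 1169 of the 2111 used genes and for 652 of the 985 without an opposite-strand exon, against which the counts of ratios above 1 below should be read. The shares called are likewise the scale for the calls in each gene group below. The share of calls that were higher depends on the scaling. Over all genes it was 52.2% with library totals, 42.2% with TMM factors, 60.7% with DESeq2 size factors, 29.6% with upper-quartile factors and 37.5% with totals over genes that have no opposite-strand exon. Without an opposite-strand exon it was 70.9%, against 76.1% with DESeq2 size factors and 57.1% with those restricted totals, and upper-quartile factors gave 66 higher and 66 lower. With an opposite-strand exon it was 31.5%, against 41.7% with DESeq2 size factors, 13.8% with upper-quartile factors and 19.9% with the restricted totals.

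**Figure D1:**
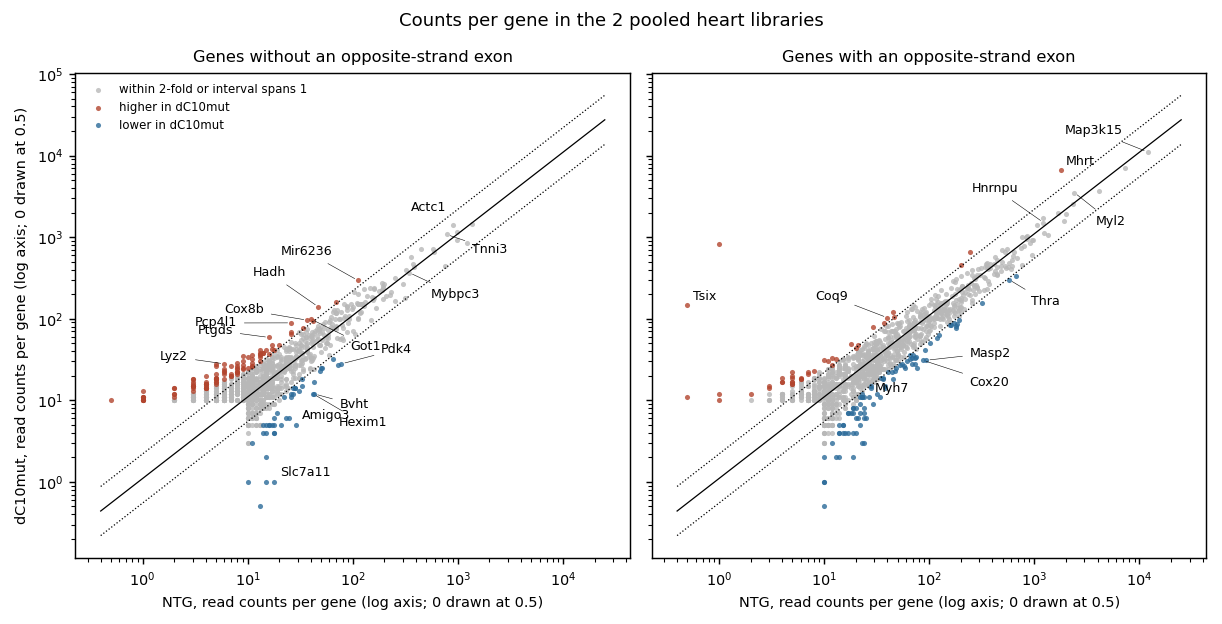
Read counts of each used gene in NTG (x axis, log) and dC10mut (y axis, log), for genes without (left) and with (right) an opposite-strand exon, where the solid line marks equal scaled counts and the dotted lines 2-fold. Mhrt at 1778 and 6620 counts lies above the upper line among the most-counted genes, while Mybpc3 lies on the line of equality.

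Transcript length moved with the ratio. Among genes without an opposite-strand exon, the median log2 ratio was 0.54 for the 105 genes with transcripts of up to 1000 bases, 0.48 from 1001 to 2000 bases, 0.23 from 2001 to 3000, 0.19 from 3001 to 4000, 0.13 from 4001 to 6000, and -0.02 for the 104 genes above 6000. Short transcripts include many respiratory chain and ribosomal protein genes. For gene groups with 5 or more members that have no partner, a second median takes the members without an opposite-strand exon, each relative to the median of such genes in its length range. The ratio also varied with the counts. Among the same genes, the median log2 ratio was 0.52 for the 384 with fewer than 26 counts over both libraries. It was 0.21 from 26 counts up, 0.23 from 51, 0.30 from 101 and 0.17 from 201. The second median does not take counts into account. The part of length or of counts in these ratios was not tested otherwise.

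**Figure D2:**
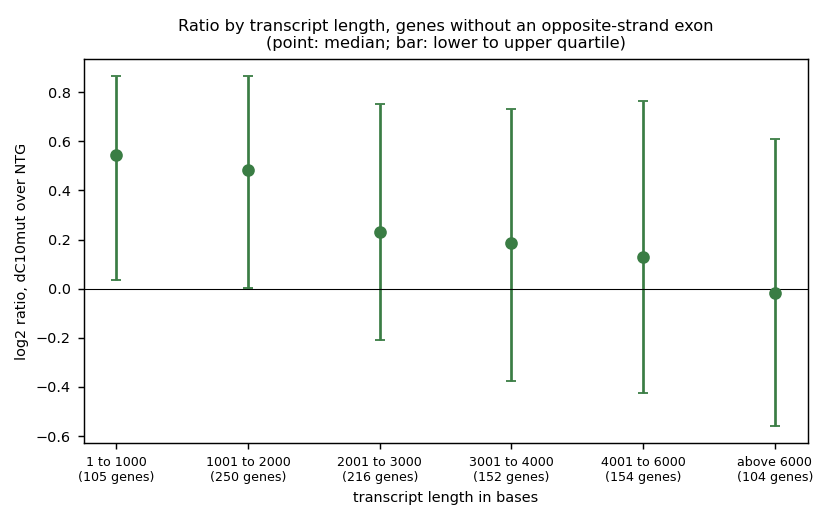
Median log2 ratio of dC10mut over NTG (y axis) in 6 ranges of transcript length in bases (x axis) for genes without an opposite-strand exon, with bars from the lower to the upper quartile. The medians go from 0.54 in the shortest range to -0.02 in the longest, and the quartile ranges overlap throughout.

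In the thick filament, the row of Mhrt stood apart and the myosin binding protein did not. Mhrt is a heart noncoding RNA from chromosome 14, 54968678 to 54974349, transcribed antisense to Myh7. Its count was 1778 in NTG and 6620 in dC10mut, 3.39-fold higher (3.22 to 3.57), and 698 in control and 447 in tt, so dC10mut was the highest of the 4 libraries and NTG the next. The row of Myh7, the beta myosin heavy chain gene that shares exon sequence with it on the other strand, held 27 and 11 counts, 2.70-fold lower (1.29 to 6.02). Reads of these partners cannot be told apart and the counted strand is not known. The rows therefore do not settle in which direction Myh7 or Mhrt RNA differed. Myh7b, a related myosin gene that faces Trpc4ap, was 2.14-fold lower (1.41 to 3.29), at 70 and 36 counts. Myl2, the ventricular regulatory light chain, held 2405 and 3520 counts, a ratio of 1.33 (1.26 to 1.40), also inside 2-fold. Of 10 thick-filament genes used, 1 was higher and 2 were lower, with a median log2 ratio of -0.06, beside 0.10 over all used genes, and -0.17 relative to the length range.

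Thin-filament genes had ratios above 1 more than below. Of 8 used, 7 had a ratio above 1 and 1 was called higher, with a median log2 ratio of 0.51, which was 0.00 relative to the length range. Actc1, the cardiac actin, went from 906 to 1403 counts (ratio 1.41, 1.30 to 1.53), Tnnc1, the calcium-binding troponin, from 357 to 568 (1.45, 1.27 to 1.66), and Tnni3, the inhibitory troponin, from 783 to 1079 (1.25, 1.14 to 1.38). Each of these intervals excludes 1 but each ratio is under 2-fold. The 1 called gene was Acta2, the smooth muscle actin, at 6 and 24 counts (3.64-fold, 1.45 to 10.9), with 24 in control and 17 in tt, so NTG was the lowest of the 4 libraries.

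The Z-disc, costamere and desmosome genes differed little. Of 25 used, 1 was called higher and 0 lower, with a median log2 ratio of 0.13, which was -0.32 relative to the length range and -0.09 with upper-quartile factors. Sgcb, a sarcoglycan of the membrane complex that links the sarcomere to the matrix, went from 14 to 38 counts (2.47-fold, 1.31 to 4.94). Actn2, the cross-linker of the Z-disc, held 299 and 264 counts (ratio 0.804, 0.678 to 0.952). Des, the intermediate filament gene desmin, which faces Gm15179, held 204 and 249.

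Of 8 calcium handling genes used, 2 were called higher and 0 lower, beside 6.73% higher over all used genes. The list median log2 ratio was 0.19, which was 0.05 relative to the length range. Calm3, a calmodulin gene, went from 5 to 18 counts (3.28-fold, 1.17 to 11.3), and Ppp1r3a, which tethers a phosphatase to glycogen and the sarcoplasmic reticulum, from 10 to 34 (3.09-fold, 1.49 to 7.02). Ryr2, the calcium release channel, held 129 and 144 counts, and Hrc, a calcium-binding protein of the reticulum, 595 and 660 (ratio 1.01, 0.902 to 1.13). Casq1, a calsequestrin gene that faces Gm17224, held 10 and 5 counts (ratio 0.455, 0.122 to 1.46). Of 8 ion channel and junction genes used, 0 were called in either direction.

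Few fetal and stress genes of hypertrophy reached the count minimum. Of 39 on the list, 5 were used, and the only call was the row of Myh7, given above, which does not settle the direction of Myh7 RNA. Nppa, atrial natriuretic peptide, which faces Gm13054, held 9 counts in NTG and 22 in dC10mut, a ratio of 2.22 (0.985 to 5.49) whose interval includes 1, beside 60 in control and 16 in tt. It passed the rule with DESeq2 size factors (log2 ratio 1.23). Ankrd1, a titin-binding stress protein, held 227 and 196 counts (ratio 0.786, 0.646 to 0.956), beside 609 in control and 321 in tt.

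Mitochondrial genes were read by complex and pathway. Of 23 Complex I subunit genes used, 21 had a ratio above 1. Beside 6.73% higher over all used genes, 5 of the 23 were higher and 0 lower. Those without an opposite-strand exon were Ndufb8, at 2 and 14 counts (ratio 6.37, 1.46 to 57.8), and Ndufc2, at 8 and 26 (2.96-fold, 1.30 to 7.56). The other 3 face another gene, namely Ndufb5 (46 and 104 counts, facing Mrpl47), Ndufb6 (10 and 31, facing Smim27) and Ndufa3 (13 and 32, facing Tfpt). Ndufb5 lost its call with TMM factors (log2 ratio 0.95) and Ndufa3 with upper-quartile factors (0.94). Ndufb8 and Ndufc2 held fewer than 10 counts in NTG, so both reached the count minimum only through dC10mut, where they were high. The part of the count minimum in these calls was not tested. The median log2 ratio was 0.40 for Complex I, and -0.06 for its 14 members without an opposite-strand exon relative to genes of their length.

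Of 27 subunit genes of complexes II to V, 1 was higher and 0 lower, and 26 ratios were above 1. Cox8b, a heart and muscle subunit of cytochrome c oxidase, held 37 counts in NTG and 96 in dC10mut, against 62 and 63 in control and tt, 2.36-fold higher (1.60 to 3.55) between the first pair. The most-counted member, Atp5b of the ATP synthase, held 575 and 715 (ratio 1.13, 1.01 to 1.27). Cox7a1, another muscle subunit of cytochrome c oxidase, went from 83 to 153 counts (1.68, 1.28 to 2.22). The median was 0.53 over all and 0.04 relative to genes of the same length. Many small ratios above 1 thus stood beside few calls, at a level like that of other short transcripts.

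Assembly factors of the chain went both ways. Of 14 used, 2 were higher and 1 lower, with a median log2 ratio of 0.56, which was 0.09 relative to the length range. Coq9, needed for coenzyme Q synthesis and facing Ciapin1, went from 40 to 103 counts (2.34-fold, 1.61 to 3.47), with 68 in control and 68 in tt. Ndufaf4, a Complex I assembly factor, went from 9 to 24 (2.43-fold, 1.09 to 5.93) and lost its call with upper-quartile factors (log2 ratio 1.05). Cox20, a further assembly factor that acts on cytochrome c oxidase and faces Hnrnpu, went from 87 to 31 counts, 3.08-fold lower (2.03 to 4.81), beside 133 in control and 59 in tt.

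Of 35 mitochondrial ribosome and import genes used, 9 were higher and 2 lower, beside 6.73% and 6.16% over all used genes. Beside 10.2% and 4.16% over all genes without an opposite-strand exon, 6 of the 17 such members were higher and 0 lower. Their median log2 ratio of 0.86 was 0.45 above that of genes of their length, and 11 of the 17 lay above it. The 6 were Mrpl41 (3 and 18 counts), Mrpl34 (3 and 17), Mrpl28 (8 and 25), Mrpl33 (6 and 18) and Mrps6 (1 and 11) of the mitochondrial ribosome, and Tomm22 (5 and 19), a receptor of the outer membrane import channel. Mrpl28 was 2.84-fold higher (1.24 to 7.30) and Tomm22 3.46-fold higher (1.25 to 11.9). Mrpl33 lost its call with TMM factors (log2 ratio 1.36). Facing genes called higher were Mrpl12 (29 and 80, facing Gm16755), Mrpl14 (4 and 17, facing Tmem63b) and Mrpl43 (4 and 19, facing Twnk). The 2 lower, Mrpl19 (41 and 22, facing Gcfc2) and Mrpl49 (19 and 7, facing Syvn1), also have partners, and Mrpl19 lost its call with DESeq2 size factors (-0.96). Counts in NTG were at most 8 for each of the 6, so each reached the count minimum only through dC10mut, where it was high. The size of each ratio is thus poorly fixed. The median relative to length does not take this into account, and the part of the count minimum in it was not tested.

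Promoters were searched in the 250 bases before the start of each gene in RefSeq (GRCm38.p6), on both strands, for the ETS core ccggaag and for the cAMP response element tgacgtca. The ETS core stood in 11 of the 30 mitochondrial ribosome and import genes that have a promoter entry (36.7%). It stood in 16.1% of the 1628 used genes that have one. It was present in 15.3% of the 766 such genes without an opposite-strand exon and in 7.83% of all 27025 promoters. In respiratory chain subunit promoters it stood in 8 of 41 (19.5%). The cAMP response element stood in 4 of these 41 (9.76%) and in 2 of the 30 mitochondrial ribosome and import genes (6.67%). It stood in 2.46% of the 1628, in 2.87% of the 766 and in 1.77% of all. Of the 9 mitochondrial ribosome and import genes called higher, 3 held the ETS core, so most of the 11 matches lie in members not called higher. Whether the core and the ratio are linked was not tested. Windows of 40 bases around the match are shown for these 3, on the strand of the gene, with the ETS core in capitals. A match is a description of letters and not a binding site. The window of Mrpl34 is chr8:71464873-71464912 (plus strand), that of Mrpl43 chr19:45006475-45006514 (minus strand) and that of Tomm22 chr15:79670808-79670847 (plus strand). The core ends 31, 50 and 38 bases before the start, in that order.
Mrpl34: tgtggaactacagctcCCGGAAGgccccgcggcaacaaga
Mrpl43: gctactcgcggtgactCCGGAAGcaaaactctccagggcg
Tomm22: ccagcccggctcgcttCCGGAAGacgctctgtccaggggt

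Fatty acid oxidation had 2 genes higher of 18 used and 0 lower, where 6.73% of all used genes were higher. Hadh, the dehydrogenase of the third step of beta-oxidation, held 47 counts in NTG and 140 in dC10mut, against 42 and 64 in control and tt, 2.71-fold higher (1.94 to 3.86), with dC10mut alone above the other libraries. Slc25a20, the carnitine carrier of the inner membrane, went from 10 to 25 counts (2.28-fold, 1.06 to 5.31) and lost its call with TMM factors (log2 ratio 1.10). The most-counted members lay within 2-fold, with Acadl at 197 and 266 (ratio 1.23, 1.02 to 1.49), Acadm at 160 and 232 (1.32, 1.07 to 1.62) and Hadha, which faces Garem2, at 183 and 231. The list median of 0.25 was -0.08 relative to genes of the same length.

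The pyruvate and citrate cycle genes gave 3 higher and 1 lower of 18. Pdk4, the kinase that switches pyruvate dehydrogenase off, held 78 counts in NTG and 28 in dC10mut, 3.06-fold lower (1.96 to 4.90). Control and tt held 113 and 46, so dC10mut was the lowest of the 4 and tt the next. Got1, the cytosolic aminotransferase of the malate shuttle, went from 40 to 99 counts (2.25-fold, 1.55 to 3.34), Dlst, of the oxoglutarate dehydrogenase complex, from 34 to 76 (2.03-fold, 1.34 to 3.15), and Pdhx, a structural subunit of pyruvate dehydrogenase, from 11 to 29 (2.40-fold, 1.16 to 5.32). Dlst lost its call with TMM factors (log2 ratio 0.94), Got1 with upper-quartile factors (0.94) and Pdhx with upper-quartile factors (1.04). The list median was 0.44, and its 14 members without an opposite-strand exon had a median of 0.00 relative to genes of their length.

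The list of ketone and branched-chain amino acid breakdown had 0 calls among 15 genes, yet 14 ratios were above 1. The median log2 ratio was 0.54, and for the 10 without an opposite-strand exon 0.26 above genes of their length. Oxct1, the rate-setting enzyme of ketone use, which faces BC037032, went from 130 to 222 counts (ratio 1.55, 1.25 to 1.95), and Hibadh of valine breakdown from 22 to 45 (1.86, 1.09 to 3.26). Of 7 glycolysis and glucose uptake genes, 0 were called, with a median of -0.03. Of 5 fatty acid uptake genes, 0 were called, and Lpl, the lipoprotein lipase, held 976 and 1170 counts (1.09, 1.00 to 1.19).

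Carriers that exchange high-energy phosphate included 1 gene higher and 1 lower of 10, with a median log2 ratio of 0.46, which was 0.22 relative to the length range. Slc25a5, the widely expressed ADP/ATP carrier, went from 5 to 28 counts (5.10-fold, 1.94 to 16.9), with 18 in control and 19 in tt. It has many processed copies in the genome, so its count is uncertain. Slc25a4, the muscle form of the carrier, held 444 and 726 (ratio 1.49, 1.32 to 1.68). Nmrk2, a muscle kinase of NAD synthesis that faces Atcayos, was 2.23-fold lower (1.42 to 3.58), at 61 and 30 counts.

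**Figure D3:**
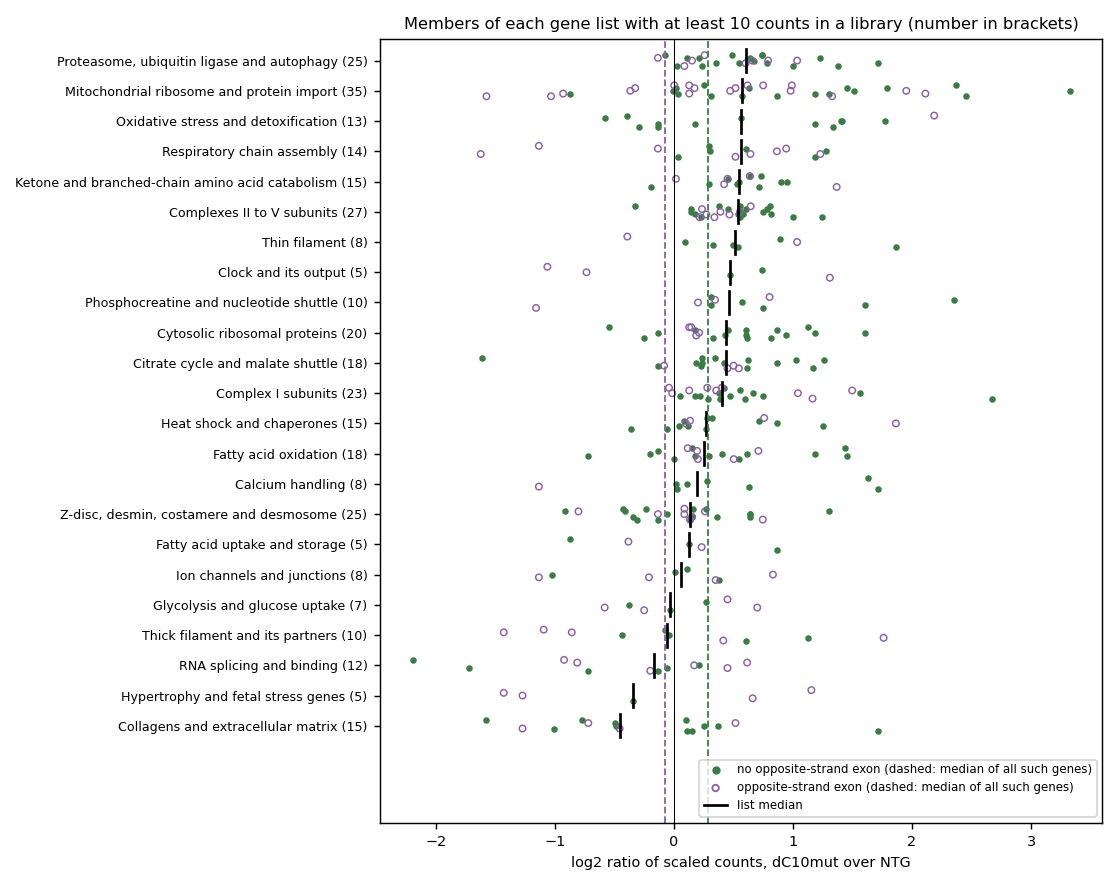
Log2 ratio of dC10mut over NTG (x axis) for the members of each gene list with 10 or more counts in a library (y axis; filled points without and open points with an opposite-strand exon, black bars list medians). Dashed lines are the medians over all such genes, 0.28 and -0.08, and most mitochondrial points lie to the right of 0 with list medians between 0.25 and 0.57.

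Proteasome, ubiquitin ligase and autophagy genes had 2 higher and 0 lower of 25, with 23 ratios above 1 and a median log2 ratio of 0.60. The share higher over all used genes was 6.73%. Psmc4, an ATPase of the proteasome cap, went from 5 to 18 counts (3.28-fold, 1.17 to 11.3), and Psmb4, a core subunit, from 7 to 20 (2.60-fold, 1.06 to 7.28), which lost its call with TMM factors (log2 ratio 1.29). The 17 members without an opposite-strand exon had a median 0.15 above genes of their length. The muscle ubiquitin ligase Trim63 held 25 and 26 counts.

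The median log2 ratio of the 13 oxidative stress genes used was 0.56, which was 0.06 relative to the length range. Beside 6.73% higher over all used genes, 5 of the 13 were higher and 0 lower. They were Txn2, the mitochondrial thioredoxin (13 and 38 counts, 2.66-fold, 1.39 to 5.44), Prdx1, a peroxiredoxin (11 and 32, 2.65-fold, 1.30 to 5.82), and the glutathione transferases Gstk1 (4 and 15), Mgst3 (9 and 25) and Gstm5 (3 and 15, facing 4933431E20Rik). The better-counted Sod2 (58 and 72), Cat (57 and 51) and Sod1 (34 and 34) were within 2-fold. Gstk1 and Mgst3 lost their calls with upper-quartile factors (log2 ratio 1.54 and 1.11). Gstk1, Mgst3 and Gstm5 held fewer than 10 counts in NTG, so each reached the count minimum only through dC10mut, where it was high. The part of the count minimum in these calls was not tested.

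In the heat shock list 2 of 15 were higher and 0 lower, beside 6.73% higher over all used genes. The median log2 ratio of the list was 0.27, which was 0.04 relative to the length range. Hspb8, a small heat shock protein of muscle, went from 26 to 68 counts (2.38-fold, 1.49 to 3.90), and Hspe1, the mitochondrial chaperonin partner that faces Hspd1, from 5 to 20 (3.64-fold, 1.33 to 12.4). Cryab, alpha B-crystallin, which faces Hspb2, held 861 and 1038 (ratio 1.10, 1.00 to 1.20).

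Cytosolic ribosomal protein genes had 2 higher and 0 lower of 20 used, beside 6.73% higher over all used genes. Their median log2 ratio was 0.44, which was 0.12 relative to the length range. Rplp0 went from 26 to 65 counts (2.28-fold, 1.42 to 3.74) and Rps9 from 20 to 48 (2.18-fold, 1.27 to 3.89), and both lost their calls with upper-quartile factors (log2 ratio 0.96 and 0.90). These genes have many near-identical pseudogenes, so their counts are uncertain. The pseudogene row Rps18-ps4, which faces Gm10260, held 1 count in NTG against 814 in dC10mut, 641 in control and 665 in tt, which sets NTG apart from the other 3 libraries.

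RNA splicing and binding genes had ratios below 1 in 8 of 12, with 0 higher and 2 lower. Pnisr, a nuclear protein with serine- and arginine-rich stretches, went from 25 to 6 counts, 4.58-fold lower (1.83 to 13.6), beside 29 in control and 25 in tt. Srsf6, a splicing factor, went from 18 to 6, 3.30-fold lower (1.25 to 10.1). The 6 members without an opposite-strand exon had a median log2 ratio of -0.43, which was -0.61 relative to genes of their length.

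The amino acid stress list had 4 genes used, with all 4 ratios below 1 and 1 called. Slc7a11, the cystine importer induced by ATF4 and NRF2, held 18 counts in NTG and 1 in dC10mut, against 12 and 0 in control and tt, a ratio of 0.0506 (0.00121 to 0.320). The tRNA synthetase gene Gars held 17 and 15 counts. Cebpg, which faces Gm45095, held 12 and 5 (ratio 0.379, 0.105 to 1.16).

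Clock and nuclear receptor genes included the facing pair Thra and Nr1d1 on chromosome 11. Thra, the thyroid hormone receptor alpha, held 575 and 302 counts, 2.09-fold lower (1.82 to 2.41), a call that ended with DESeq2 size factors (log2 ratio -0.99). Nr1d1, the clock repressor REV-ERB alpha, held 194 and 128 (ratio 0.601, 0.477 to 0.755). Dbp, a clock output factor that faces Sphk2, went from 18 to 49 (2.48-fold, 1.42 to 4.52), beside 35 in control and 23 in tt. Esrra, a receptor that controls mitochondrial genes and faces Trmt112, went from 12 to 27 (2.05-fold, 1.00 to 4.44) and lost its call with TMM factors (0.95). The hour at which hearts were taken is not given in the sources used here.

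Matrix genes gave 1 higher and 2 lower of 15. Col8a1, a short-chain collagen of vessels, went from 19 to 7 counts, 2.98-fold lower (1.20 to 8.39), and Hspg2, the basement membrane proteoglycan perlecan, from 33 to 18, 2.01-fold lower (1.10 to 3.80), which lost its call with DESeq2 size factors (log2 ratio -0.93). Fstl1, a secreted glycoprotein of heart stroma, went from 5 to 18 (3.28-fold, 1.17 to 11.3). The list median of -0.46 turned to 0.10 without facing members and to -0.13 for those relative to the length range. Col3a1, a fibrillar collagen, held 23 and 18 counts.

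Among markers of other cell types, members of some lists went both ways. Of 12 fibroblast markers, 4 were used and Dpt, a matrix protein of fibroblasts, was higher (14 and 38 counts, 2.47-fold, 1.31 to 4.94). Col1a1 held 8 and 5 counts, Col1a2 7 and 2, Col3a1 23 and 18, Lum 11 and 13, Pcolce 5 and 10, and Pdgfra 0 and 0. The summed level of the list was 469 CPM in NTG and 528 in dC10mut, a gap smaller than that of Dpt alone. Of 10 activated fibroblast markers only Acta2 was used, and Postn, Cilp and Lox held 0 in both libraries. Of 16 macrophage markers only Lyz2, lysozyme, was used, at 6, 28, 28 and 5 counts in NTG, dC10mut, control and tt (4.25-fold, 1.73 to 12.5, between the first pair). The macrophage list summed to 123 and 326 CPM, with C1qa at 4 and 5 counts, C1qb at 1 and 6, C1qc at 1 and 7, and Cd68 at 1 and 1. Of 17 endothelial markers, 4 were used, with Aqp1, a water channel, higher (8 and 29 counts, 3.30-fold, 1.47 to 8.35), Cdh5 at 39 and 24, Kdr at 23 and 18, and Pecam1 at 0 in both. The list summed to 1442 and 1505 CPM, a gap smaller than that of Aqp1 alone. Of 13 pericyte and smooth muscle markers, 5 were used, with Rgs5 at 65 and 120 counts (ratio 1.68, 1.23 to 2.31) and Notch3, which faces Gm17276, 3.40-fold lower (1.68 to 7.43) at 34 and 11. Haemoglobin genes held 0 counts. In bulk hearts, fewer cells of a type and less RNA per cell cannot be told apart, and the part of cell composition in these rows was not tested.

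Genes without an opposite-strand exon that lay farthest above equality also included genes outside the lists. Pcp4l1, a small protein related to a calmodulin regulator, held 26, 89, 18 and 31 counts in NTG, dC10mut, control and tt, 3.12-fold higher (1.99 to 5.03) between the first pair. Ptgds, prostaglandin D2 synthase, held 16, 59, 55 and 35 (3.36-fold, 1.91 to 6.25), and Mgp, an inhibitor of vessel calcification, 9, 35, 26 and 20 (3.54-fold, 1.67 to 8.37). Nipsnap2, a mitochondrial matrix protein, held 69, 162, 102 and 134 (2.14-fold, 1.60 to 2.88) and lost its call with upper-quartile factors (log2 ratio 0.87). Tspan3, a membrane tetraspanin, held 5, 26, 17 and 20, and Cdnf, a secreted neurotrophic factor, 1, 13, 3 and 10. Tob1, an antiproliferative regulator, held 0, 10, 4 and 6, at least 3.03-fold higher. In Ptgds, Mgp, Nipsnap2, Tspan3, Cdnf and Tob1, NTG was the lowest of the 4 libraries, whereas in Pcp4l1 and Hadh dC10mut alone stood high. Mir6236, a microRNA hairpin row, held 112, 295, 94 and 80 counts, 2.40-fold higher (1.92 to 3.01).

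Among those farthest below equality, besides Slc7a11, Pdk4 and Pnisr given above, was Amigo3, a leucine-rich adhesion protein, at 29, 5, 41 and 24 counts in the same order of libraries, 6.37-fold lower (2.44 to 21.1). Bvht, or Braveheart, a noncoding RNA of cardiac commitment, held 43, 12, 72 and 43 (3.94-fold lower, 2.04 to 8.20). Hexim1, which holds back the elongation kinase P-TEFb and has been tied to heart growth, held 42, 12, 26 and 19 (3.85-fold lower, 1.99 to 8.02). Csrnp2, a nuclear factor, held 72, 27, 58 and 56 (2.93-fold lower, 1.86 to 4.74). Eif3l, a subunit of a translation initiation factor, held 21, 5, 8 and 8 (4.61-fold lower, 1.69 to 15.7). Evpl, envoplakin, held 13, 0, 10 and 8, at least 4.76-fold lower. The monocarboxylate transporter gene Slc16a4 held 18, 4, 14 and 8, Plekhn1 18, 4, 20 and 22, and Zfp599 15, 2, 8 and 5. From Amigo3 to Zfp599, dC10mut was the lowest of the 4 libraries in each gene.

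**Figure D4:**
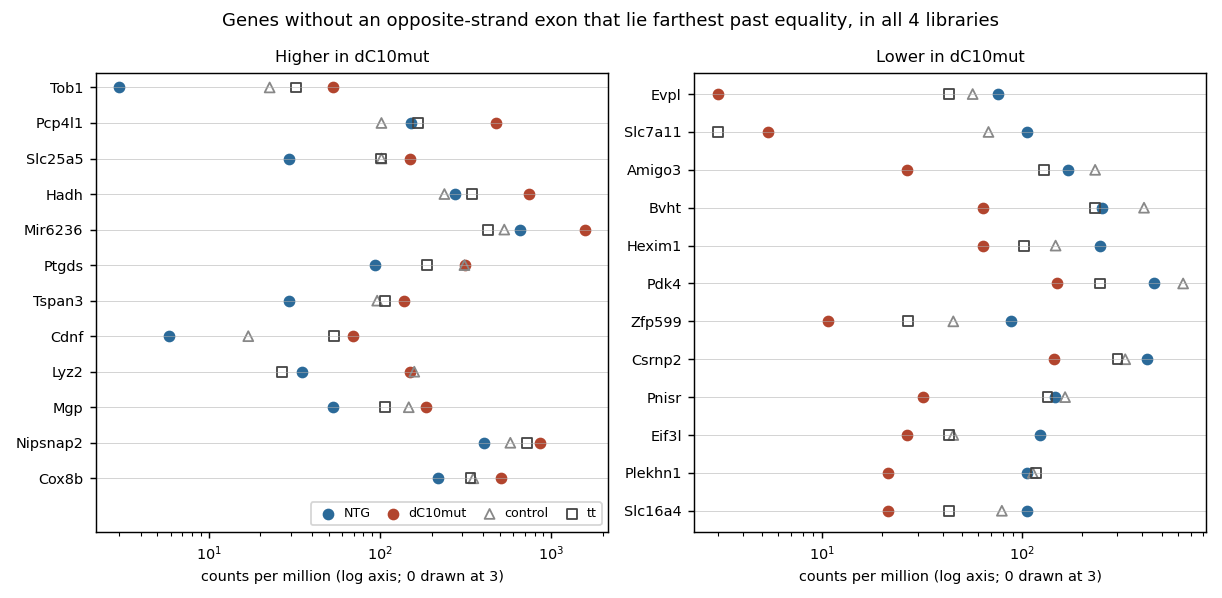
CPM (x axis, log, with 0 drawn at 3) in all 4 libraries for the 12 genes farthest above and the 12 farthest below equality without an opposite-strand exon (y axis), with pseudogene and clone symbols left out. Filled circles are NTG and dC10mut, open triangles control and open squares tt; in Hadh and Pcp4l1 only dC10mut stands apart, while in Tspan3 only NTG does.

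The values of control and tt were placed against the pair as a description. Of the 100 genes called higher without an opposite-strand exon, control and tt both lay on the dC10mut side of the midpoint between the pair in 45, both on the NTG side in 27, and on opposite sides in 28. Of the 41 called lower, they lay on the dC10mut side in 3, on the NTG side in 18 and apart in 20. Among the 100, NTG was the lowest of the 4 libraries in 84 and dC10mut the highest in 76. Among the 41, dC10mut was the lowest in 38 and NTG the highest in 26. Since the genes were called for the gap between these libraries, an extreme place for either is built in.

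With pseudogene and clone symbols left out, facing genes called higher besides Mhrt, Tsix, Mrpl12, Coq9 and Ndufb5 were led by Itgad. This integrin gene (45 and 121 counts) faces the cytochrome oxidase subunit gene Cox6a2, itself at 82 and 114. Slc9a4, a sodium-proton exchanger that faces Gm37435, held 1 and 12 counts and Pdf, a mitochondrial deformylase that faces Vps4a, 5 and 22. Facing genes called lower, with the same symbols left out, were led by Slc38a9, a lysosomal amino acid sensor (24 and 3 counts, facing Gm47827), Fbxw8 (19 and 2, facing Gm9754) and Esyt3 (10 and 0, facing Gm37249), with Cox20 given above. Masp2, a complement protease gene that faces Tardbp, went from 94 to 31 counts, 3.33-fold lower (2.20 to 5.17), beside 126 in control and 113 in tt. Fbxl22, a muscle F-box gene that faces Herc1, went from 179 to 81, 2.43-fold lower (1.86 to 3.20), and Fbxl2, which faces Ubp1, from 77 to 25. Fam228a, which faces Itsn2, held 20 and 4.

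Of 846 pairs of facing genes with at least 1 used, 179 had both used, of which 38 had both ratios above 1, 60 both below and 81 apart. In 376 pairs the row with fewer counts held none in either library. Map3k15 and Pdha1 had ratios of 0.843 and 1.41, and A930016O22Rik and Ckm 0.894 and 1.15, so the smaller row, that of the metabolic gene, had the higher ratio in both of these pairs. Both BC037032 (202 and 453 counts) and Oxct1 had ratios above 1, at 2.04 and 1.55. A630019I02Rik had a ratio of 2.44 and its partner Cmya5, a costamere protein, one of 1.06. Wdr6 and Dalrd3 had ratios of 0.547 and 0.518.

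**Figure D5:**
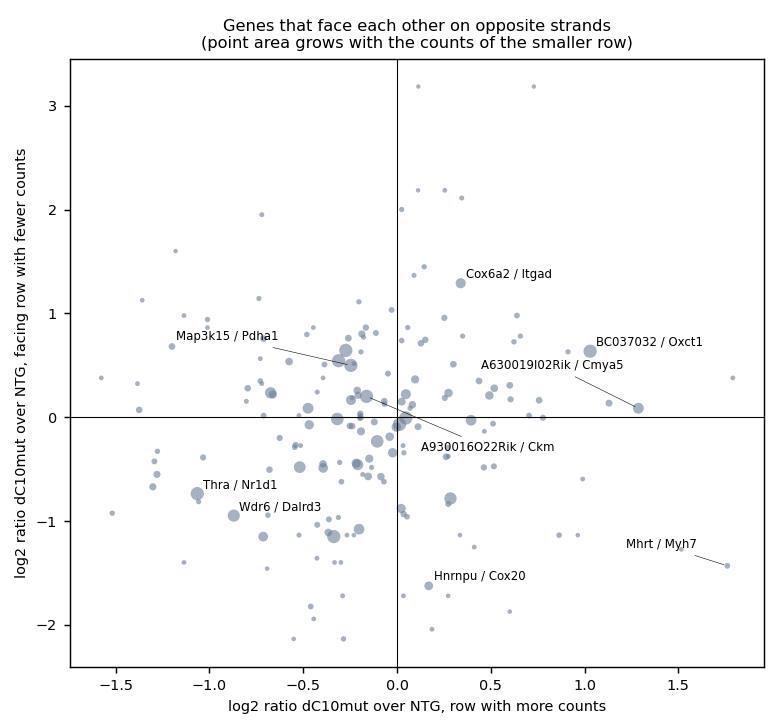
Log2 ratio of dC10mut over NTG for the row with more counts (x axis) and the row with fewer (y axis) in the 179 pairs of facing genes where both were used, with point area growing with the counts of the smaller row. Mhrt with Myh7 and Hnrnpu with Cox20 lie at the lower right, where the partners go opposite ways, and Thra with Nr1d1 at the lower left, where both ratios are below 1.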

How the data were processed

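Each library was a pool of 3 mouse hearts. Poly-T beads took mRNA from total RNA and libraries kept the strand, per the labels' protocols. Per the submitters' processing notes, STAR, HTSeq and build mm10 were used; no source used here gives versions, counting mode or strand setting. The authors deposited whole-number read counts for each RefSeq transcript without normalization, per the file columns. Every per-sample column was used.

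Of 41449 transcripts, 41351 matched a symbol and 98 did not (1.81% of counts in NTG, 2.17% in dC10mut). Counts were summed per symbol to 24906 genes, of which 24670 were placed on GENCODE M21 (GRCm38) and 5994 had an opposite-strand exon. Library totals, from 170543 to 187365 counts, scaled the ratio, and a conditional Clopper-Pearson 95% interval was taken with scipy 1.17.1. With 1 library per group no model was fitted. The interval rule was tried on counts simulated with counting error only, so that trial says nothing about variation between pools. edgeR 4.0.16 and DESeq2 1.42.0 gave alternative scaling factors only. A fold against 0 counts is a bound against 3 counts in that library. Log2 values of genes at 0 in list medians use that bound.

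The pair, the 28 pathway and 14 cell type lists and the naming rule were chosen with earlier results of these data known. Named were Mybpc3, Xist and Tsix; by the interval bound nearest 1, the 12 genes each way without and 8 each way with an opposite-strand exon; 3 each way among pseudogene and clone symbols; and per list the 4 most-counted members and every called one. Genes in the facing-pair paragraph, Pdha1, Cd68 and like markers below the minimum, Sod1, Cat, Gars, Trim63, Hibadh and a few others were named after their values were seen. Promoters are from RefSeq (GRCm38.p6). Alternatives were other scalings, count minimums, folds, single transcripts and totals without the 10 most-counted genes. Some genes the rule takes are left out of the text but stay in counts and list medians.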

Additional observations from a re-analysis of the deposited data

How the results depend on the processing

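The 194 named genes with a finite ratio were recomputed under 5 other scalings, which gave 970 ratios. No called ratio changed direction, and none could, since every shift given below is smaller than a 2-fold change. Ratios near 1, that of Mybpc3 among them, crossed 1 in 35 genes that were not called, and the call changed in 48 ratios of 23 genes. Scaling moved every log2 ratio by -0.09 (TMM), 0.08 (DESeq2 size factors), -0.23 (upper quartile) or -0.14 (totals over genes without an opposite-strand exon). The last scaling, a minimum of 20 counts summed over both libraries and list medians relative to length were chosen after seeing the data. Calls higher and lower were 92 and 219 with upper-quartile factors, 21 and 36 with a minimum of 50 counts, 48 and 70 with 10 counts in both libraries and 75 and 58 at 3-fold; 205 were lower at 1.5-fold, and 41 were lower among genes without an opposite-strand exon. For genes without an opposite-strand exon they were 66 and 66, 11 and 5, 32 and 19, and 56 and 24 for the same 4 settings in that order, and 63 were lower with a minimum of 1 count. For genes with one they were 24 and 150, 10 and 30, 16 and 50, and 17 and 33, and 76 and 149 at 1.5-fold. Fewer genes enter under the stricter minimums; the cause of the other shifts was not tested. The medians of 11 of 25 lists changed sign under some alternative, among them Complex I (-0.06) and fatty acid oxidation (-0.08) relative to length, ion channels with TMM factors (-0.03), calcium handling with upper-quartile factors (-0.03), glycolysis (0.05) and the thick filament (0.02) with DESeq2 size factors, and the clock list with a minimum of 50 counts (-0.74). Depth limits the text to genes with 10 counts, and most higher calls rest on fewer than that in NTG. No paired analysis was possible because each group has 1 library. No library could be left out for the same reason.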

Other observations

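Smaller lists gave few calls. Of 4 interferon and antigen presentation genes used, 0 were called and all 4 ratios were above 1, with B2m, the light chain of class I molecules, at 23 and 40 counts in NTG and dC10mut (ratio 1.58, 0.925 to 2.77). Of 4 immediate early genes used, 0 were called. Klf4, a growth-linked transcription factor, held 13 and 5 counts (ratio 0.350, 0.0977 to 1.05), and it passed as lower with TMM factors (log2 ratio -1.60), upper-quartile factors (-1.74) and totals over genes without an opposite-strand exon (-1.65). Of 4 nuclear receptor and regulator genes, Esrra was called higher and Thra lower, and Perm1, a muscle regulator of energy metabolism, held 46 and 55 counts. The ventricular markers had 1 call, the row of Myh7 with the limit given above, among 10 used, with a median log2 ratio of 0.22. Phox2a, a neuronal factor that faces Inppl1, was lower (ratio 0.435, 0.278 to 0.668), at 69, 33, 72 and 30 counts in NTG, dC10mut, control and tt, while the other Schwann cell and neuron markers held at most 2 counts in either library of the pair. Of the atrial markers only Nppa was used, and Myl7, Myl4 and Sln held 0. Of the adipocyte markers only Fabp4 was used (154 and 184 counts), which endothelial cells also make, and Adipoq held 0. Of the skeletal muscle markers only Ckm was used. No marker of lymphocytes and granulocytes, red blood cells, epicardium or endocardial and lymphatic endothelium reached 10 counts.

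Among symbols of clones and unnamed transcripts, D630041G03Rik went from 0 counts (NTG) to 21 (dC10mut), at least 6.37-fold higher, with 1 in control and 13 in tt. The row 4932441J04Rik held 0, 11, 2 and 13 counts in NTG, dC10mut, control and tt. AI507597 was lower, at 181, 78, 189 and 165 counts, as were Gm14137 (15, 1, 13 and 5) and 4933413J09Rik (23, 3, 16 and 11). In D630041G03Rik and 4932441J04Rik the libraries dC10mut and tt, which also hold the Xist and Tsix counts, were the highest of the 4. Among genes called lower, dC10mut and tt were the lowest in rows such as Slc7a11, Pdk4, Cox20, Fbxl2 and Phox2a. In Masp2 and Plekhn1, also called lower, tt lay above NTG. The part of sex in these rows was not tested.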
